A study of Mus musculus with 3 samples.

Results

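The genes described here encode the proteins of the cytosolic ribosome, and their levels were compared in left ventricle of mice given saline, isoproterenol, or isoproterenol with INSL6. Members were taken by symbol: every probe set whose mouse gene symbol is Rpl, Rps or Rplp followed by a number (with its letter suffixes), plus Rpsa, without the Rps6k kinases and without genes named as -ps pseudogenes. This gave 65 genes of 25206 probe sets, 38 of the large (60S) subunit, 2 of its stalk (Rplp0 and Rplp1) and 25 of the small (40S) subunit. RefSeq's mouse gene table holds 91 symbols of this form, and the other 26, among them Rps6, Rpl11 and Rplp2, were not analysed here. RefSeq gives 2 members, Rpl6l and Rps4l, a pseudogene biotype, and they were kept because the symbol rule takes them.

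All mice were male C57BL/6N, aged 8 to 12 weeks, and every animal carried a subcutaneous osmotic pump. Control mice had a vehicle pump (ammonium bicarbonate) and saline injections. Iso mice had a vehicle pump and isoproterenol, a beta-adrenergic agonist that strains and injures the heart, at 50 mg/kg per day into the peritoneum for 11 days. Iso+Insl6 mice received the same isoproterenol while the pump delivered INSL6 protein, a relative of insulin and relaxin, at 50 to 70 nmol/kg per day. Ventricles were harvested at day 14. Each group is 1 array of a pool of 3 RNA samples, so no value has an error between animals, no test of the conditions is possible, and every difference below has no replicate check. Differences compare arrays only, and the comparisons share arrays with one another.

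A ribosome translates mRNA into protein. Its small subunit holds the mRNA and reads codons, its large subunit forms peptide bonds, and the stalk of the large subunit recruits the translation factors. Mammalian cells keep the proteins in balance, since each ribosome needs 1 copy of nearly every one, and their mRNAs are among the abundant mRNAs of any cell. They begin with a run of pyrimidines, the terminal oligopyrimidine (TOP) tract, through which mTOR signalling controls their translation. In heart, ribosome production is known to accompany growth of the muscle cells.

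The start sites of some members are shown because the TOP tract is the sequence feature this gene family is best known for. RefSeq start sites (GRCm38.p6) were listed for 47 of the 65 genes, and each window below runs from 10 bases before the start to base 20, 5′ to 3′ on the coding strand, with its longest run of C or T in capitals. The first 3 belong to genes whose arrays are described further on as well above background or different between arrays. The last 2 are those of the members with the highest listed Iso minus Control differences.
Rpl15 (chr14:18270967-18270996, minus strand): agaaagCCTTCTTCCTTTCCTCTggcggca
Rps9 (chr7:3704031-3704060, plus strand): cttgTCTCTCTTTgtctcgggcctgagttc
Rps27 (chr3:90213629-90213658, minus strand): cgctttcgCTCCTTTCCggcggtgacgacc
Rpl9 (chr5:65391412-65391441, minus strand): gggCCCTgacggattacaagaacgtgatga
Rps3a1 (chr3:86142649-86142678, minus strand): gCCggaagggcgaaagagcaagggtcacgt

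The run is 17 bases long in Rpl15, 9 in Rps9 and 9 in Rps27. At the annotated starts of Rpl9 and Rps3a1 the longest runs are 4 and 2 bases. These windows were picked and do not stand for the family. Rpl14, with an Iso minus Control difference of 0.66, has a run of 14 bases. A run of at least 7 pyrimidines lay in this window at 20 of 59 member starts, 33.9%, against 17.9% of 32851 starts of all genes. It was found at 1 or more starts of 5 of the 10 genes with a start entry that differed 1.5-fold between arrays, and of 14 of the 37 that did not. The full 300 bases, 250 before the start and 50 after, were searched for motifs. Some genes have several starts, whose stretches can overlap, so the shares are of starts and not of genes. The core letters of the GABP site, CCGGAAG on either strand, were at 18 of 59 member starts, 30.5%, against 8.86% of all starts. The YY1 core AAGATGG was in 16.9% against 6.34%, and the TATA box letters TATAAA in 8.47% against 13.6%, both strands searched and no motif containing another. These are descriptions of letters, and annotated starts can lie some bases from the start used in heart.

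Levels are log2 values per probe set, on which a difference of 1 is a 2-fold difference. Background was set at 4.16, the median of all values on the 3 arrays. Over the 65 genes the level ran from 1.29 to 10.27 on Control, from 1.36 to 10.28 on Iso and from 1.49 to 10.27 on Iso+Insl6, with medians of 4.24, 4.24 and 4.20. The median over all 23740 probe sets with a symbol was 4.24 on each array. The genes fell into 33 at or above background on all arrays, 29 below it on all arrays and 3 that crossed it. Above background on every array were 50.8% of these genes and 50.8% of all named probe sets. Levels of different probe sets are not compared with one another here, since each depends on its own probes. A low listed level therefore says nothing of how much of that protein's mRNA the ventricle holds.

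**Figure D1:**
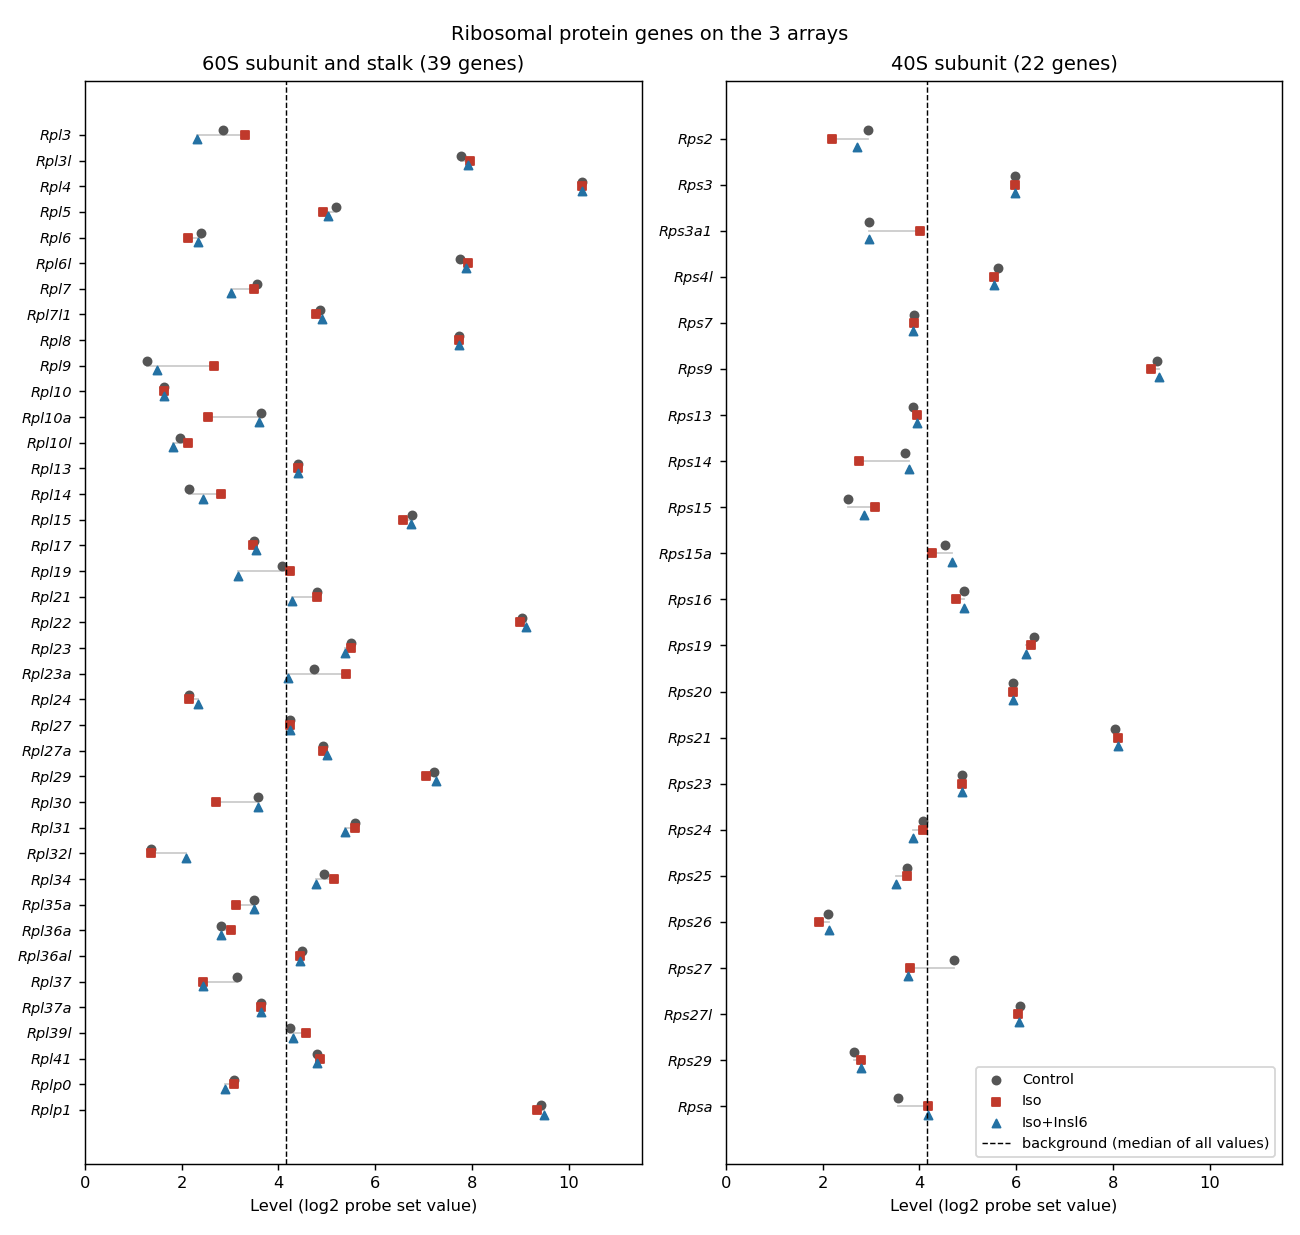
Level of each of the 61 ribosomal protein genes that the platform annotation lists (x axis, log2 probe set value) on Control, Iso and Iso+Insl6, 1 array per group, with the 39 genes of the 60S subunit and stalk on the left and the 22 of the 40S subunit on the right. The dashed line is the background of 4.16, and grey bars span the 3 arrays. Most genes have their symbols nearly on top of one another, and the wide bars lie mainly left of the line.

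The heart muscle label was borne out by its markers. All 10 cardiomyocyte markers (such as Myh6, Tnnt2 and Actc1) were above background on every array, with mean levels of 11.70, 11.73 and 11.70 on Control, Iso and Iso+Insl6. Of 8 lymphocyte markers, 0 reached background on any array. The 8 fibroblast markers had mean levels of 7.34, 7.53 and 7.67 on Control, Iso and Iso+Insl6. Relative to Iso, 7 of them were higher and 0 lower on Iso+Insl6, with 0 past 1.5-fold. Relative to Control, 6 were higher and 1 lower on Iso+Insl6. Past 1.5-fold higher were 2 of these, against 1.96% of all named probe sets above background. The part of fibroblast markers in the ribosomal protein values was not tested. Hepatocyte markers stood apart most on the Iso+Insl6 array, and of 15 on the list 14 were measured. Of these, 13 were at least 1.5-fold higher on Iso+Insl6 than on Iso, against 1.49% of all named probe sets above background. On Iso relative to Control, 2 were higher and 10 lower. Past 1.5-fold there were 0 higher, against 0.846%, and 4 lower, against 1.03%. The mean level of these markers was 6.11 on Control, 5.84 on Iso and 8.07 on Iso+Insl6. Their summed level on the linear scale was 1324, 1214 and 6113 in the same order. The hepatocyte markers move with every difference that involves the Iso+Insl6 array, and less so with Iso against Control. What part they have in the ribosomal protein values was not tested. In ventricle as a whole, fewer cells of a type and less RNA per cell cannot be told apart.

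The study first set Iso beside Control, to see how isoproterenol alters the normal ventricle. Ribosomal protein genes showed no common direction on the Iso array. Of the 36 members at or above background on either array, 11 were higher on Iso, 15 were lower and 10 had identical values to 2 decimals, with a median difference of 0.00. Of all 12415 named probe sets above background, 2450 were higher on Iso, 3393 lower and 6572 identical. With 52.9% identical, their median was bound to be 0.00. By listed values 2 members, Rpl23a and Rpsa, were past 1.5-fold (log2 0.585) on the higher side, against a background rate of 0.846%, and 1, Rps27, on the lower side, against 1.03%. Rpsa and Rps27 reached background only on the arrays where they were high, so neither is shown to differ 1.5-fold. With background required on all 3 arrays the counts were 1 (Rpl23a) and 0.

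Rpl23a, a large subunit protein near the exit of the peptide tunnel, stood at 4.73 on Control, 5.39 on Iso and 4.20 on Iso+Insl6. Its level was highest on Iso and lowest, just above background, on Iso+Insl6. Iso exceeded Control by 0.66, which is 1.58-fold. Rpsa, the small subunit protein that was first described as a laminin receptor, had levels of 3.56, 4.18 and 4.18. Both isoproterenol arrays lay at one value just above background and Control below it, a listed difference of 0.62. Because Control lies below background, the bound for Rpsa is at least 1.01-fold.

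Rps27, a zinc finger protein of the small subunit, was at 4.71 on Control, 3.80 on Iso and 3.77 on Iso+Insl6. Control alone lay above background, and both isoproterenol arrays were close together below it. The listed difference between Iso and Control was -0.91, and against background Rps27 was at least 1.46-fold lower on Iso. Its paralog Rps27l had levels of 6.08, 6.04 and 6.06, a spread of 0.04 over the arrays.

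The remaining members above background differed less between Iso and Control. Higher were Rpl39l, a paralog of Rpl39 best known from testis (0.32), Rpl34 (0.21) and Rpl3l, the form of Rpl3 restricted to heart and skeletal muscle (0.18). Rpl19, of the large subunit, was higher by 0.17, as was Rpl6l. Lower were Rpl5, which carries the 5S RNA into the large subunit and can bind Mdm2 (-0.27), Rps15a (-0.27), Rpl15 (-0.17), Rps16 (-0.17) and Rpl29 (-0.16). Rpl8, Rpl13, Rpl27, Rps3, Rps20 and Rps23 did not differ to 2 decimals on any array. Rps3 lines the mRNA entry and Rps23 the decoding centre, and Rpl8 lies close to the site of peptide bond formation.

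The 13 members with a mean level of 6 or more over the arrays differed by 0.22 or less in every comparison. They include Rpl3l, Rpl4, Rpl6l, Rpl8, Rpl15, Rpl22, Rpl29, Rplp1, Rps9, Rps19, Rps21 and Rps27l. Between Iso and Control they ran from -0.17 to 0.18, with 5 higher, 7 lower and 1 identical and a median of -0.04. Rpl4, which lines the tunnel of the growing peptide, had 10.27, 10.28 and 10.27 on Control, Iso and Iso+Insl6. Its arrays differed by no more than 0.01. Rplp1, an acidic stalk protein that binds elongation factors, had 9.43, 9.35 and 9.48. Rps9 had 8.91, 8.79 and 8.96, and Rpl22 had 9.04, 8.98 and 9.12. In these 3 genes Iso was lowest and Iso+Insl6 highest, by 0.17 or less. At this level 1.45% of 6143 named probe sets passed 1.5-fold, and 0 of the 13 members did.

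**Figure D2:**
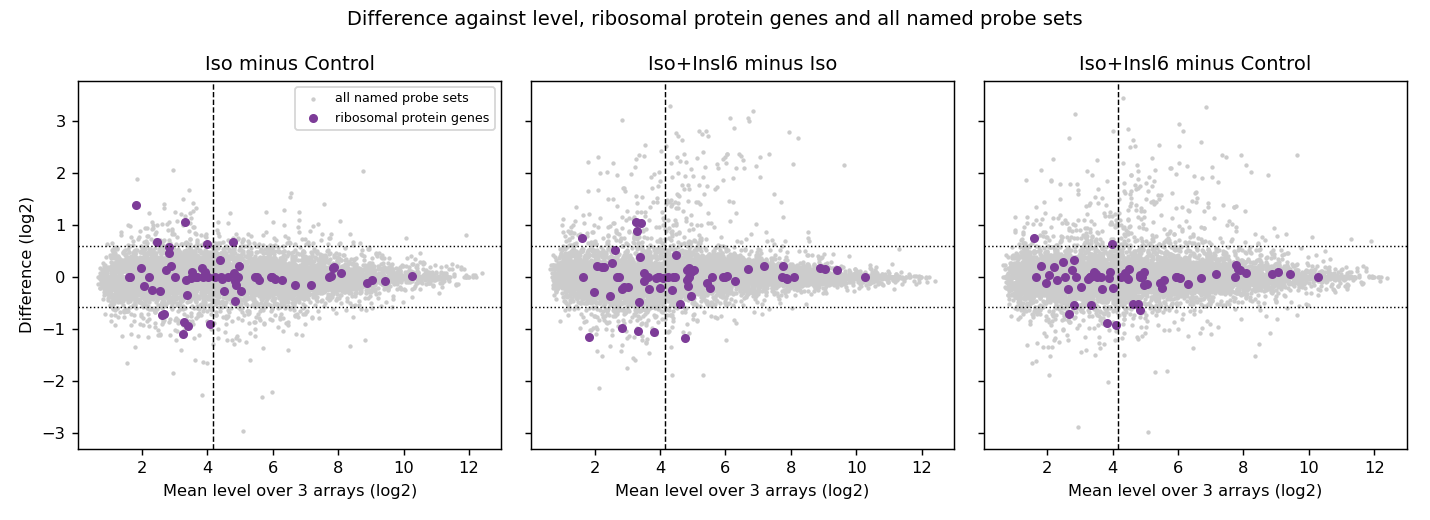
Difference (y axis, log2) against mean level over the 3 arrays (x axis, log2) for the 3 comparisons, with ribosomal protein genes in purple over all named probe sets, which include them, in grey. Dotted lines mark 1.5-fold and the dashed line the background of 4.16. Members right of 6 lie close to 0, and those past the dotted lines lie near or left of the dashed line.

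Most of the members past 1.5-fold lay below background. With no filter on level, 11 of 65 members, 16.9%, were past 1.5-fold between Iso and Control, against 1.79% of all 23740 named probe sets. Higher were 5 members, against a background rate of 0.8%, and lower were 6, against 0.994%. Of the 32 members with a mean level below background, 10 were past it (4 higher, 6 lower), against 1.99% of 11466 named probe sets at such levels. Since both levels lie below background in 8 of the 11, these are differences of listed values, for which no fold is given.

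Rpl9, at the base of the stalk, had the largest of them, with 1.29 on Control, 2.66 on Iso and 1.49 on Iso+Insl6, an Iso difference of 1.37. Rps3a1, which contacts initiation factors on the small subunit, was at 2.97, 4.02 and 2.97, and Rpl14 at 2.15, 2.81 and 2.44. In these 3 genes Iso was the highest array. On the other side Rpl10a, the protein of the mobile L1 stalk, was at 3.64, 2.54 and 3.59. Rps14, known from the deletion of the 5q- syndrome, was at 3.70, 2.75 and 3.79, and Rpl30 at 3.58, 2.71 and 3.58. Iso was the lowest array for all 3, with Control and Iso+Insl6 within 0.09 of each other. Rps2, at the mRNA entry of the small subunit, had 2.94, 2.20 and 2.71 and was also lowest on Iso. Rpl37 differed in another way, with 3.15 on Control and 2.44 on both isoproterenol arrays.

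**Figure D3:**
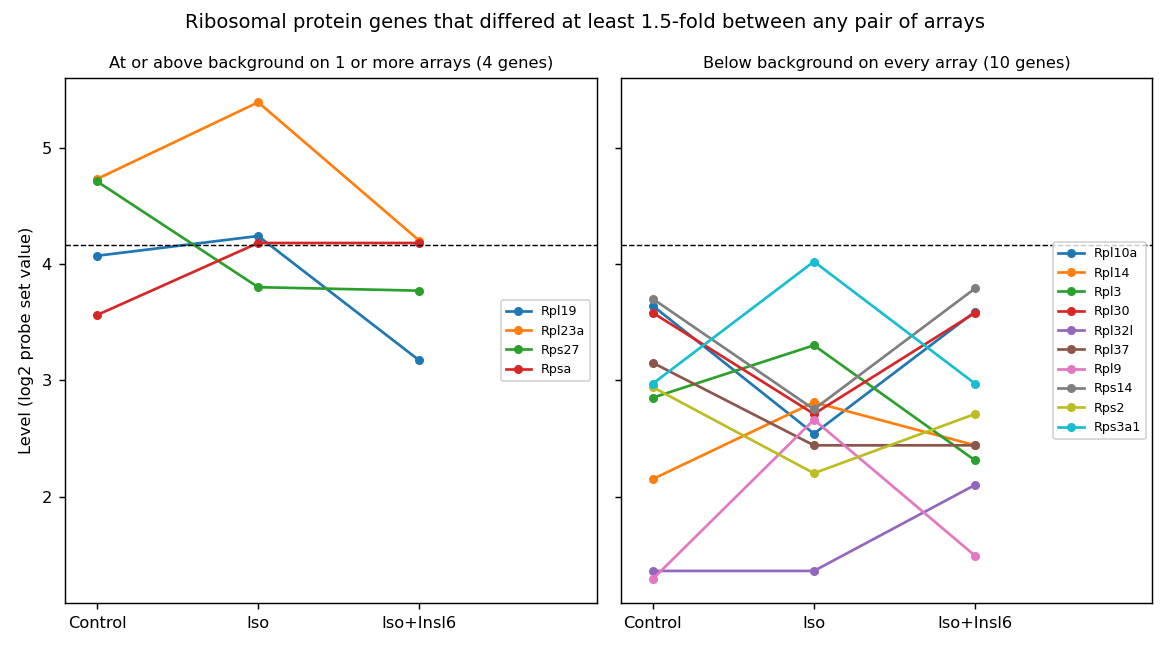
Levels (y axis, log2) of 14 ribosomal protein genes that differed at least 1.5-fold between any pair of arrays, on Control, Iso and Iso+Insl6. The 4 genes on the left reached background (dashed, 4.16) on 1 or more arrays, and the 10 on the right on none. Lines join the values of a gene and carry no error, since each group is 1 array.

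Its other comparison set Iso+Insl6 beside Iso, to see what INSL6 adds under isoproterenol. Here too the members had no common direction, with 12 higher, 13 lower and 10 identical among the 35 above background and a median of 0.00. Of all 12457 named probe sets above background, 3475 were higher, 2242 lower and 6740 identical. With 54.1% identical, their median was also bound to be 0.00. By listed values 0 members were past 1.5-fold on the higher side, against a background rate of 1.49%, and 2, Rpl23a and Rpl19, on the lower side, against 0.506%. Rpl19 reached background only on Iso, where it was high, and is not shown to differ 1.5-fold. With background required on all 3 arrays the lower count was 1 (Rpl23a). By subunit, 7 of 22 large subunit and stalk members were higher and 11 lower, while 5 of 13 small subunit members were higher and 2 lower. Between Iso and Control, which shares the Iso array, 8 large subunit and stalk members were higher on Iso and 7 lower. In the small subunit 3 were higher there and 8 lower. Between Iso+Insl6 and Control both subunits were even, with 8 higher and 8 lower, and 5 higher and 5 lower.

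Rpl23a was lower on Iso+Insl6 by -1.19, from 5.39 to 4.20, a 2.28-fold difference with both levels above background. Rpl19, which forms a bridge to the small subunit, stood at 4.07 on Control, 4.24 on Iso and 3.17 on Iso+Insl6. Only Iso lay above background, so the listed difference of -1.07 gives a bound of at least 1.06-fold. Rpl21 had 4.79 on Control, 4.79 on Iso and 4.27 on Iso+Insl6. For Rpl21 Iso+Insl6 was the lowest array, by 0.52 from either other. Rpl34 (-0.37), Rpl39l (-0.25) and Rpl31 (-0.21) were lower by less. Rps15a was highest of the members relative to Iso, with 4.54, 4.27 and 4.68 on Control, Iso and Iso+Insl6. Its difference of 0.41 did not reach 1.5-fold. After it came Rpl29 (0.21), Rps9 (0.17), Rps16 (0.17) and Rpl15 (0.15). Rps19, known from Diamond-Blackfan anaemia, differed by -0.09.

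With no filter on level, 9 of 65 members, 13.8%, were past 1.5-fold, against 2.12% of all named probe sets. Higher were 4, against a rate of 1.32%, and lower were 5, against 0.8%. The higher ones were Rpl10a (1.05), Rps14 (1.04), Rpl30 (0.87) and Rpl32l, which was at 1.36 on Control, 1.36 on Iso and 2.10 on Iso+Insl6. The lower ones beside Rpl23a and Rpl19 were Rpl9 (-1.17), Rps3a1 (-1.05) and Rpl3, a core protein of the large subunit close to its catalytic centre (-0.99). Apart from Rpl23a and Rpl19, these levels lay below background on every array. Most of the genes are those named for Iso against Control, and the 2 comparisons share the Iso array, so the values are not independent.

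Set against Control directly, all 12420 named probe sets above background had 2863 higher, 2896 lower and 6661 identical on Iso+Insl6. Of the 35 members above background, 13 were higher, 13 lower and 9 identical, with a median of 0.00. By listed values Rpsa alone was past 1.5-fold on the higher side (0.62, background rate 1.96%), and 2 members, Rps27 (-0.94) among them, on the lower side, against a rate of 0.789%. With background required on all 3 arrays the counts were 0 higher and 1 lower. Rpl23a (-0.53) and Rpl21 (-0.52) came next. The bounds were at least 1.01-fold for Rpsa and at least 1.46-fold for Rps27, so neither is shown to differ 1.5-fold. At any level 6 of 65 members, 9.23%, were past 1.5-fold, against 2.46% of named probe sets. Higher were 2, against a rate of 1.5%, and lower were 4, against 0.956%. Rpl32l (0.74), Rpl37 (-0.71) and Rpl19 (-0.90) were among them, and all 3 lay below background on both of these arrays.

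Fewer members than named probe sets had the same value on both arrays of a comparison. Between Iso and Control 27.7% of members had identical values, against 61.1% of all named probe sets. Between Iso and Iso+Insl6 the shares were 23.1% and 60.5%, and between Control and Iso+Insl6 24.6% and 61.2%. The median size of a member's difference in either direction was 0.08, 0.17 and 0.08 in the same order, and that over all named probe sets was 0.00 each time. Over the 3 arrays 15 members, 23.1%, spanned at least 1.5-fold, against 3.84% of named probe sets. They comprised 9 genes of the large subunit, 6 of the small subunit and none of the 2 stalk genes. This describes 3 arrays and is not a test.

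**Figure D4:**
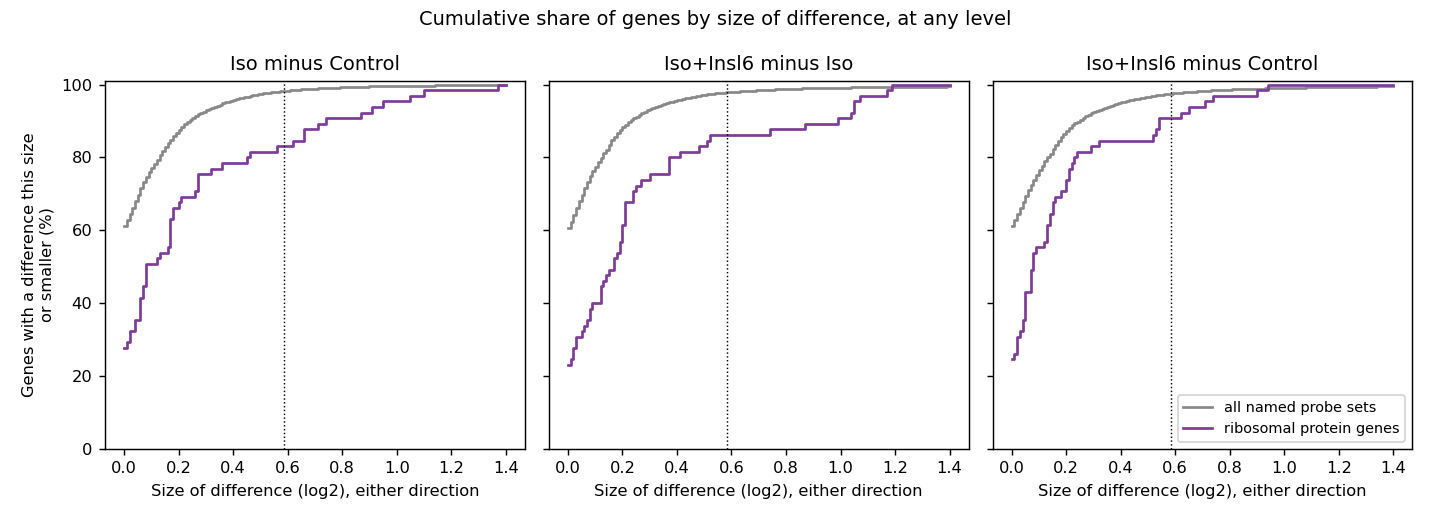
Share of genes (y axis, percent) whose difference in either direction is at most the size on the x axis (log2), at any level, for the 3 comparisons. Ribosomal protein genes are in purple and all named probe sets in grey, and the dotted line marks 1.5-fold. The purple line starts lower, at 27.7%, 23.1% and 24.6% identical values, and stays below the grey one up to the dotted line.

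Of the pairs of a core gene and its paralog that had been listed for comparison, both genes were measured in 5. Rpl3 had 2.85 on Control, 3.30 on Iso and 2.31 on Iso+Insl6, all below background. The muscle form Rpl3l had 7.78, 7.96 and 7.91. Rpl3l was lowest on Control and differed by at most 0.18. Rpl7 had 3.55, 3.49 and 3.01, and Rpl7l1, a relative of Rpl7, had 4.85, 4.77 and 4.89. Rpl10, which joins the large subunit late in assembly, was listed at 1.64 on all arrays, and its testis paralog Rpl10l at 1.96, 2.13 and 1.83. Rpl36a was at 2.82, 3.02 and 2.82, and Rpl36al at 4.48, 4.44 and 4.44. Rps27 and Rps27l, described above, are the remaining pair. The genes of a pair have different probe sets, so their levels do not show which has more mRNA. Whether the probes also match pseudogenes could not be examined. Outside the listed pairs, Rpl6 had 2.40, 2.14 and 2.33 and Rpl6l had 7.74, 7.91 and 7.88. For the paralogs Rpl39l and Rps4l no level of Rpl39 or Rps4x was analysed here, and Rpl22 was measured without Rpl22l1. Rps4l had 5.62 on Control and 5.55 on both other arrays.

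The other members below background on every array differed by less than 1.5-fold. In the large subunit these included Rpl6, Rpl7, Rpl10, Rpl10l, Rpl17, Rpl24, Rpl35a, Rpl36a, Rpl37a and the stalk anchor Rplp0. Rplp0, often used as a reference gene, had 3.09, 3.09 and 2.89 on Control, Iso and Iso+Insl6. In the small subunit they were Rps7, Rps13, Rps15, Rps24, Rps25, Rps26, Rps27a and Rps29. Rps15 had the largest Iso difference among them, with 2.53, 3.09 and 2.85, and Rps27a, made as a fusion with ubiquitin, had 2.63, 2.36 and 2.63. Also above background were Rpl23, Rpl27a and Rpl41, which differed by 0.12 or less between any pair of arrays.

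Other genes of protein synthesis were read from lists for comparison. Beside them stand all named probe sets above background, with 2450 higher and 3393 lower on Iso and 1.88% past 1.5-fold. On Iso+Insl6 relative to Iso these were 3475 higher and 2242 lower, with 1.99% past it. Of 76 mitochondrial ribosomal proteins, which build the separate ribosome of mitochondria, 73 were above background between Iso and Control, with 11 higher, 21 lower, 41 identical and 0 past 1.5-fold in either direction. Between Iso+Insl6 and Iso 20 were higher, 10 lower and 43 identical, again with 0 past it. The widest of them were Mrpl20 (4.65, 4.36 and 4.80 on Control, Iso and Iso+Insl6), Mrpl3 (7.98, 7.64 and 7.87) and Mrpl48 (6.18, 6.51 and 6.28). Below background, Mrps14 was at 2.82, 1.69 and 3.18 and Mrps36 at 2.83, 2.70 and 3.58. The medians of all 9 translation lists above background lay between 0.00 and 0.02 in every comparison. Identical values hold such medians at or near 0.00, so they say little. Between Iso and Control 56.2% of the mitochondrial ribosomal proteins above background were identical.

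Translation factors differed little. Of 35 initiation factors above background, 10 were higher and 8 lower on Iso, and 12 higher and 6 lower on Iso+Insl6 relative to Iso, with 0 past 1.5-fold. Eif1, which helps to select the start codon, had 9.76, 9.99 and 10.13 on Control, Iso and Iso+Insl6, and Eif4g3 had 7.43, 7.15 and 7.25. Among 10 elongation and release factors above background 0 were past it, with Eef1e1 at 7.24, 6.95 and 6.78 and Eef1g at 5.93, 6.28 and 5.93. Eef1a1, an elongation factor, was listed below background at 2.09, 3.11 and 3.11, and its relative Eef1a2 had 10.33, 10.31 and 10.33. Of the other mRNAs with a TOP tract, 9 of 18 above background were higher on Iso, 1 lower and 8 identical, none by 1.5-fold. Their median difference was 0.005. On Iso+Insl6 relative to Iso 7 were higher and 4 lower. Some of these genes, such as Eef1g and Eif3f, are also on the lists of translation factors. Npm1, a nucleolar chaperone, had the largest Iso difference of the 18, with 4.05, 4.56 and 4.13. Rack1, a scaffold on the small subunit, was at 8.65 and Fau at 3.80 on every array.

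**Figure D5:**
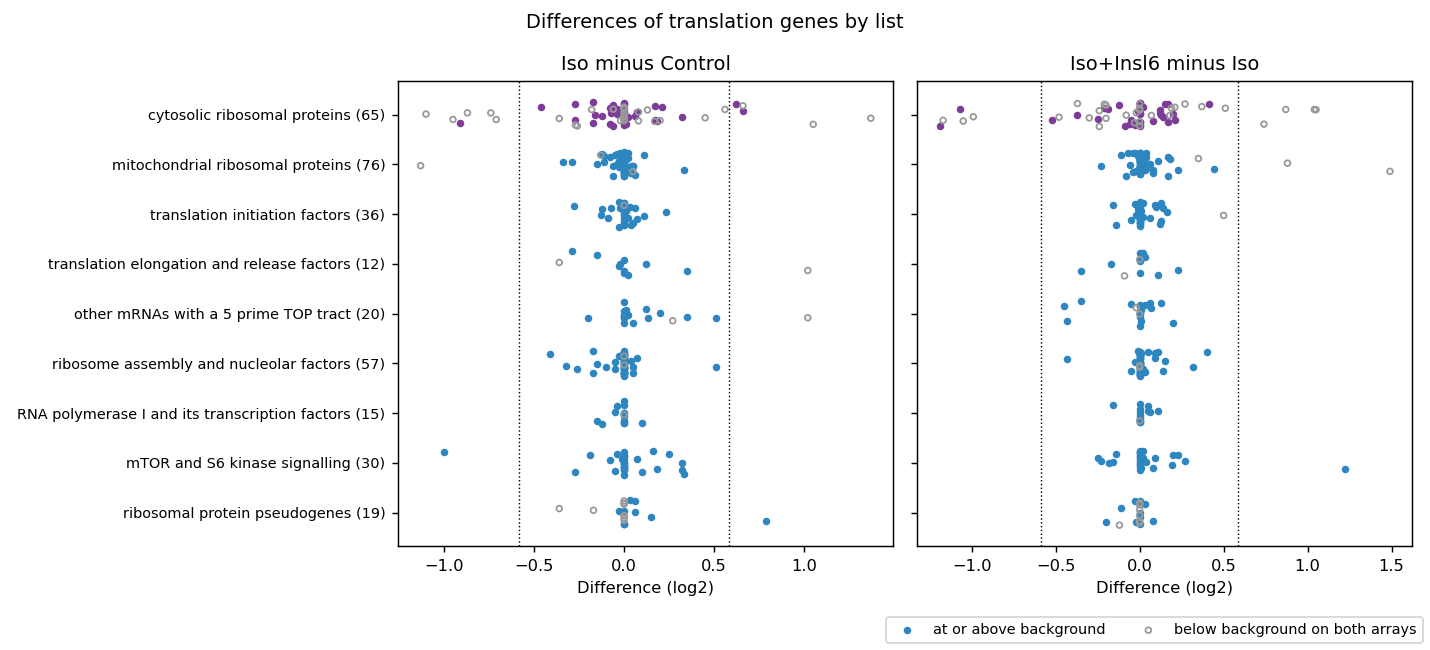
Differences (x axis, log2) of single genes for Iso minus Control and Iso+Insl6 minus Iso, with the number of measured genes in brackets. Each translation list is drawn except that of Rack1 and Fau. Filled points are at or above background on either array compared and open points are below it on both. Dotted lines mark 1.5-fold. The cytosolic ribosomal protein genes (top, filled points purple) hold most of the points beyond them. Of theirs, 8 for Iso minus Control and 7 for Iso+Insl6 minus Iso are open, below background on both arrays. Vertical spread within a list has no meaning.

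Genes for ribosome assembly and RNA polymerase I differed little in level, and ribosome production itself was not measured. Of 55 assembly and nucleolar factors above background, 5 were higher and 11 lower on Iso, with 0 past 1.5-fold. Relative to Iso, 12 were higher and 4 lower on Iso+Insl6, again with 0 past it. All named probe sets above background leaned the same ways, with 2450 higher and 3393 lower, then 3475 higher and 2242 lower. Fbl, the methyltransferase of ribosomal RNA, had 5.07, 4.66 and 5.06 on Control, Iso and Iso+Insl6, and Nhp2 had 5.67, 5.35 and 5.67. In both genes Iso was the lowest array. Of 14 RNA polymerase I genes above background, 1 was higher and 4 lower on Iso and 0 passed 1.5-fold, with Polr1a, the largest subunit, at 7.06, 6.91 and 6.96.

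In the list of mTOR and S6 kinase signalling, 8 of 30 genes were higher and 7 lower on Iso. Only Ddit4, an inhibitor of mTOR complex 1, passed 1.5-fold in this list, with 5.73 on Control, 4.73 on Iso and 5.95 on Iso+Insl6. Iso was its lowest array, by 1.22 from Iso+Insl6 and by somewhat less from Control. Sesn1 had 8.19, 8.51 and 8.71, and Eif4ebp1, the repressor of cap binding that mTOR switches off, had 7.18, 7.43 and 7.66. Both were lowest on Control and highest on Iso+Insl6. Of 19 ribosomal protein pseudogenes measured, Rps12-ps24 alone passed 1.5-fold, with 4.86, 5.65 and 5.45.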

How the data were processed

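Expression was measured in left ventricle on 3 arrays, 1 per group, each hybridised with 3 RNA samples in a pool. The values the authors deposited are log2 levels of probe sets. The submitters' processing notes name RMA and version 1.36.1 of affy; the settings, the array's build and the probes of each set are not given in the sources used here. RMA sets arrays to a common distribution, which can hide a shift shared by most genes. Each probe set carries an Entrez gene number, and RefSeq's table (GRCm38.p6) named 23740 of 25206. All 65 members were named by it, and the platform annotation listed 61 of them. Columns without a sample numbered 0.

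Differences are log2, and a gene was counted at 1.5-fold in either direction if its higher level in the comparison reached 4.16, the overall median. Below that, folds are bounds or left out. Members were set beside all named ones, and no test was run, since a group is 1 array, and this number limits precision. Alternatives were a 2-fold threshold, other filters on level, cyclic loess, quantile and centring steps (limma 3.58.1), and other member sets. A few members are not reported by name here, though they stay in the counts. Counting was tested on simulated data.

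Members and lists were chosen with earlier results of these data known. Named were members past 1.5-fold at any level, the 6 largest differences in each direction above background, the paralog pairs, the stalk proteins and Rpsa, members below background, and in other lists up to 3 genes with the largest differences and those past 1.5-fold. Genes named without large differences (Rpl4, Rpl8, Rps19 and the like), the cut at 6 and the motifs were chosen after values were seen. Promoter sequences are RefSeq's.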

Additional observations from a re-analysis of the deposited data

How the results depend on the processing

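The counts of members changed with the filter on level and the threshold. With no filter, members at least 1.5-fold higher and lower numbered 5 and 6 for Iso minus Control (2 and 1 as reported), 4 and 5 for Iso+Insl6 minus Iso (0 and 2), and 2 and 4 for Iso+Insl6 minus Control (1 and 2). When all 3 arrays had to reach background they were 1 and 0, 0 and 1, and 0 and 1, with Rpl23a the member left in the first and second. Choosing genes on the array not compared gave 0 lower for Iso minus Control and 1 lower for Iso+Insl6 minus Iso. At 2-fold the counts were 0 and 0 for Iso minus Control and for Iso+Insl6 minus Control. With genes of the platform annotation only, chosen after seeing the data, 1 member was lower for Iso+Insl6 minus Control.

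Cyclic loess, quantile normalization and centring on genes above background changed no count of members. The deposited values had already been set to a common distribution by RMA, so these steps could change little. The median moved from 0.00 to 0.02 for Iso minus Control and to -0.04 for Iso+Insl6 minus Iso under centring, and to -0.02 for the latter under quantile normalization. The same settings moved the median of all named probe sets above background to 0.02, -0.04 and -0.03, so the direction of such small medians is not fixed. For the 15 members past 1.5-fold between any pair of arrays, no difference crossed the threshold and no difference past it changed sign under these settings. Differences near 0 could change sign, as for Rps27 in Iso+Insl6 minus Iso (-0.03 as reported, 0.01 under quantile normalization). No paired analysis was possible because each group has 1 array. Members near background are limited by signal over background, and 8 of 11 Iso differences past 1.5-fold lie below it on both arrays.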
